A study of Homo sapiens with 4 samples.

Results

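The genes of the human beta-globin cluster (HBE1, HBG2, HBG1, HBD and HBB) and BCL11A were followed in ARP1, an established multiple myeloma cell line, which grows from antibody-secreting plasma cells. The members were chosen by symbol, and each of the 6 symbols matched a single row among 58825 rows of the deposited gene table. They were proposed because HBE1 and HBG2 had stood out when overexpression of RFWD2 was set against wild type, so their values in that contrast are given as a description and carry no test. The libraries were 2 from ARP1 cells with the genotype RFWD2 overexpression and 2 from wild type ARP1 cells. RFWD2, now called COP1, encodes an E3 ubiquitin ligase that marks proteins for degradation. The labels do not say how RFWD2 was overexpressed, whether the cells were clones or pools, or whether the biological repeats were separate cultures.

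Haemoglobin pairs alpha-like with beta-like chains. The beta-like genes stand along chromosome 11 in the order of their use in development, with embryonic HBE1 nearest the upstream control region, then the fetal genes HBG2 and HBG1, and then the adult genes HBD and HBB. BCL11A is a zinc-finger repressor that silences the fetal genes in adult red cells, where it binds the motif TGACCA. It is also a transcription factor of the B-cell lineage, the lineage from which plasma cells arise, whereas globin genes are known for their use in erythroid cells.

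The coding sequences bear on which members a short read can tell apart, though exon bases outside the coding sequence were not compared. In the GENCODE 29 transcripts (GRCh38), all 5 coding sequences are 444 bases long, and HBG2 and HBG1 differ at only 2 of these bases, an identity of 99.55%. The longest stretch without a difference between the fetal genes is 226 bases. HBD and HBB share 92.79%, HBE1 and HBG2 83.56%, and HBG2 and HBB 76.58%. The 60 bases from coding position 197 to 256, in exon 2 on the minus strand, hold the earlier of the 2 fetal differences. They are shown 5′ to 3′, with capitals marking bases that differ from HBG2. They lie at chr11:5269513-5269572 in HBE1, chr11:5254351-5254410 in HBG2, chr11:5249427-5249486 in HBG1, chr11:5234050-5234109 in HBD and chr11:5226636-5226695 in HBB.
HBE1: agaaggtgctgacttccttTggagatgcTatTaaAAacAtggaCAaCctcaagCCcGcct
HBG2: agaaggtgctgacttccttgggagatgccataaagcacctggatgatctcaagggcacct
HBG1: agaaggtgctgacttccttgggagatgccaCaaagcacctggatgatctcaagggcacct
HBD: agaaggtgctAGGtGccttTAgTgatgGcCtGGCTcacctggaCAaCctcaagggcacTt
HBB: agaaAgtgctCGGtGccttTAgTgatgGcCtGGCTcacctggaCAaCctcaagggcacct

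The window holds 12 differences from HBG2 in HBE1, 1 in HBG1 and 17 each in HBD and HBB. The sources used here do not state how reads common to HBG1 and HBG2 were assigned, so the split between those 2 rows is uncertain.

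The gene models differ in extent as much as the coding sequences do in identity. All 5 globin models lie on the minus strand of chromosome 11. HBB (ENSG00000244734) runs from 5225464 to 5229395, HBD (ENSG00000223609) from 5232678 to 5243657 and HBG1 (ENSG00000213934) from 5248079 to 5249859. HBG2 (ENSG00000196565) runs from 5253188 to 5505605 and HBE1 (ENSG00000213931) from 5268345 to 5505652, spans of 252418 and 237308 bases. These long spans come from alternative transcripts with a far upstream exon. GENCODE 29 places exons ending between 5505604 and 5505652 in 2 of the 3 HBE1 transcripts, 1 of the 3 HBG2 transcripts and 4 of the 5 transcripts of OR51B5, an olfactory receptor gene inside the span. The exon is 36 or 84 bases long in HBE1, 255 in HBG2, and 45 or 84 in OR51B5. The remaining transcripts of HBE1 and HBG2 start at the genes themselves. HBE1 overlapped 11 other rows on the same strand (7 with any count), HBG2 12 (8 with any count), HBG1 and HBD 1 each, and HBB and BCL11A 0. The table gives 1 value per gene, so transcripts from the near and the far start cannot be told apart in it, nor can reads in exons that several of these rows share.

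**Figure D1:**
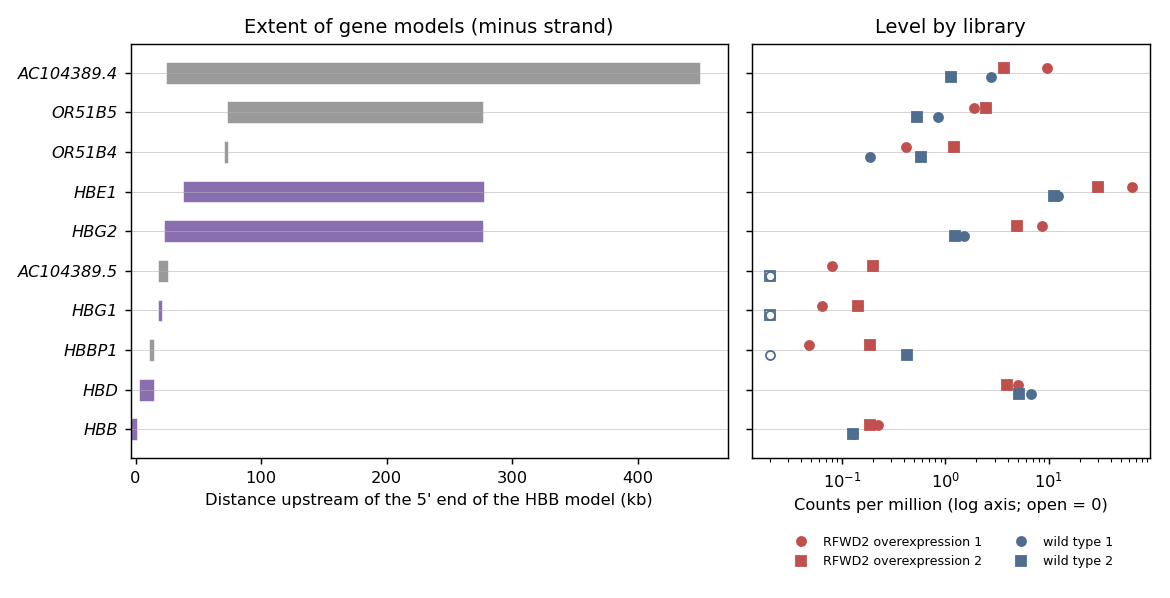
Left, extent of the minus-strand gene models of the table, in kb upstream of the 5′ end of the HBB model (members in violet, other rows in grey). Right, CPM (counts scaled to library total) in each of the 2 RFWD2 overexpression (red) and 2 wild type (blue) libraries on a log axis, with circles for libraries numbered 1, squares for those numbered 2 and open symbols at the left edge for a count of 0. HBE1, HBG2 and OR51B5 end at the same distance, 276.2 to 276.3 kb upstream. In these rows and AC104389.4 both overexpression libraries lie to the right of both wild type libraries. The same order holds in HBB, HBG1 and AC104389.5, which lack the far extent. Over all genes tested, 10.7% show it in TMM-scaled CPM, a set that leaves out HBG1 and AC104389.5. The members were proposed from this contrast and several other rows overlap them, so nothing is read from the order.

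The libraries held 62143098 to 70713792 estimated counts in total, and between 10587 and 11658 genes reached 1 FPKM, a level scaled to gene length and library total. Plasma cell genes marked the libraries as labelled: 9 of 10 markers fixed for that cell type reached 1 FPKM, and their summed level was 1740 and 1910 FPKM in overexpressing cells, against 1940 and 2260 FPKM in wild type cells. RFWD2 itself stood at 13.5 and 13.9 FPKM in overexpression libraries 1 and 2, and at 5.99 and 8.93 FPKM in wild type libraries 1 and 2. Over 18873 genes tested with edgeR's quasi-likelihood test, 0 were called at a Benjamini-Hochberg adjusted p under 0.05 (0.0% called). Of these genes, 346 had an unadjusted p under 0.05. DESeq2 called 55 of a wider set of 28086 genes (0.196%). The 5 members that edgeR tested were among the genes not called by it, from which nothing is read, since they were proposed from this contrast. With 2 libraries a group, an exact two-sided permutation test of a single value cannot go below p = 0.333.

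HBE1, which encodes the embryonic epsilon chain, was the most abundant member in every library. It had 54.9 and 26.2 FPKM in overexpression libraries 1 and 2 (3953 and 2122 counts), against 10.5 and 9.70 FPKM in wild type libraries 1 and 2 (857 and 796 counts). In FPKM, overexpression library 1 was the highest, the wild type libraries were close to each other, and the groups did not overlap. In TMM-scaled CPM the values were 70.5 and 26.6 with overexpression, against 13.5 and 10.5 in wild type. The group means, 40.6 ± 20.3 FPKM for overexpression against 10.1 ± 0.59 FPKM for wild type (SD, n = 2 each), stood in a ratio of 4.01. By level, HBE1 ranked 740 and 1554 among all rows in the overexpression libraries, against 3197 and 3771 in the wild type libraries. Its log2 fold change was 2.02 ± 0.58 (SE), with 2.38 between the libraries numbered 1 and 1.34 between those numbered 2. Without overexpression library 1 it was 1.14, and without overexpression library 2 it was 2.56.

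HBG2 encodes the fetal G-gamma chain. It had 8.48 and 4.86 FPKM in the overexpression libraries (535 and 345 counts), against 1.48 and 1.21 FPKM in the wild type libraries (106 and 87 counts). Its libraries stood in the same order as those of HBE1, again without overlap between groups. The means were 6.67 ± 2.56 and 1.34 ± 0.19 FPKM (SD, n = 2 each), a ratio of 4.97 and a log2 fold change of 2.30 ± 0.60 (SE). Libraries numbered 1 alone gave 2.49 and libraries numbered 2 alone 1.88. The value was 1.61 without overexpression library 1 and 2.76 without overexpression library 2. The FPKM ratio of HBG2 to HBE1 was 0.15 and 0.19 under overexpression, against 0.14 and 0.12 for wild type.

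HBG1, the fetal A-gamma gene whose coding sequence is almost that of HBG2, was barely seen. It had 4 and 10 counts in the overexpression libraries, against 0 counts in each wild type library. The gamma signal of the table therefore stood in the HBG2 row, and HBG1 did not pass the filter on low counts. AC104389.5, a model that spans both fetal genes, had 5 and 14 counts with overexpression and 0 in each wild type library.

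**Figure D2:**
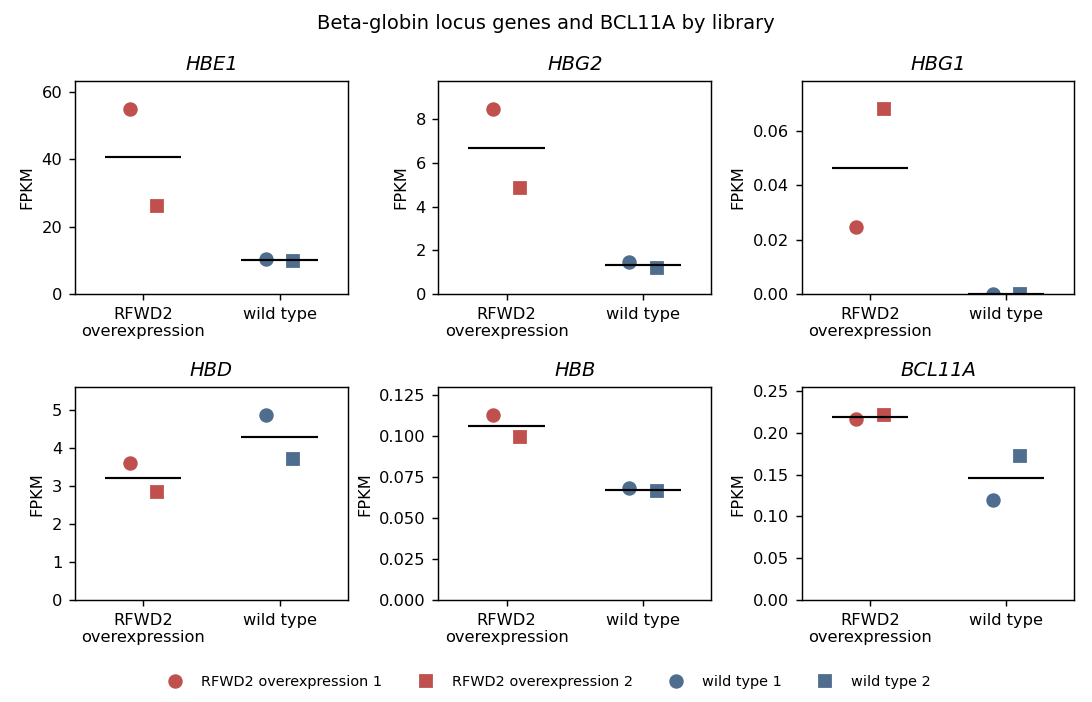
FPKM of each member in the 2 RFWD2 overexpression libraries (red, left) and the 2 wild type libraries (blue, right), with a bar at the group mean and a separate linear axis from 0 for each gene. HBE1 lies at 54.9 and 26.2 FPKM against 10.5 and 9.70 FPKM, while HBG1, HBB and BCL11A reach at most 0.221 FPKM in any library.

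HBD encodes the delta chain, a minor chain of adult haemoglobin. It stood at 3.60 and 2.83 FPKM in the overexpression libraries (312 and 277 counts), against 4.86 and 3.71 FPKM in the wild type libraries (475 and 366 counts). Alone among the globin members it had lower values with overexpression, with means of 3.21 ± 0.55 and 4.28 ± 0.81 FPKM (SD, n = 2 each). The groups lay apart in FPKM, but overlapped once library sizes were scaled with TMM factors, at 5.56 and 3.47 against 7.48 and 4.83 CPM. The log2 fold change was -0.45 ± 0.51 (SE), -0.43 between libraries numbered 1 and -0.48 between those numbered 2. The difference was smaller than its standard error. HBBP1, the pseudogene next to HBD whose model overlaps it, had 3 and 13 counts with overexpression and 0 and 30 in wild type.

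Of the beta-like members, the RefSeq promoter table (GRCh38.p14) held HBD only. Its window, 250 bases before to 50 after the start at chr11:5234434-5234733 on the minus strand, is shown because HBD was the abundant cluster gene whose model does not reach the far upstream exon. The HBD model, with 6 transcripts, extends upstream of this window to 5243657. Which start the HBD counts came from was not tested. Capitals mark matches to 5 motifs searched on both strands, which do not overlap each other here.
HBD: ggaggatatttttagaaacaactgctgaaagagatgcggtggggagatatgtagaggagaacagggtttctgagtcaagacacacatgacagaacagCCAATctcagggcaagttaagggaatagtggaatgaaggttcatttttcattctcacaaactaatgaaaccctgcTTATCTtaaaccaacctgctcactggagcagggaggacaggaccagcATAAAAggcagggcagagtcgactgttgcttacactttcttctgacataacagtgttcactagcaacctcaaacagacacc

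A match to CCAAT, the core of the CCAAT box, began at -153 relative to the start. Whether this or any other match is a working element was not tested. The core read by GATA factors (AGATAA) began at -78 on the opposite strand, and a TATA-like run (ATAAAA) at -31. The core bound by the erythroid activator KLF1 (CACCC) and the motif bound by BCL11A (TGACCA) had 0 matches in the window. Of all 35116 promoter windows of this length in the table, 34.6% held CCAAT, 59.9% the KLF1 core, 10.3% the GATA core, 10.7% the BCL11A motif and 15.99% the TATA-like run on either strand.

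HBB, the adult beta chain gene and the main globin gene of adult red cells, was near the floor. It had 14 and 13 counts with overexpression and 9 in each wild type library, or 0.113 and 0.0996 FPKM against 0.0682 and 0.0664 FPKM. The groups did not overlap, though the counts were few, and the log2 fold change was 0.65 ± 1.08 (SE). Over the 5 members that passed the filter, both overexpression libraries lay above both wild type libraries in 4 (HBE1, HBG2, HBB and BCL11A, in TMM-scaled CPM) and below them in 0. The same held upwards in 10.7% and downwards in 10.6% of all genes tested. Since the members were proposed from this contrast, nothing is read from their count.

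Summed over the 5 beta-like genes, the level was 67.1 and 34.1 FPKM in the overexpression libraries, against 16.9 and 14.7 FPKM in the wild type libraries. Mean sums were 50.6 ± 23.4 FPKM for overexpression against 15.8 ± 1.59 FPKM for wild type (SD, n = 2 each), a difference of 34.8 FPKM that became 4.35 FPKM without HBE1. The difference was 18.3 FPKM without overexpression library 1 and 51.3 FPKM without overexpression library 2. Shares of the sum add up to the whole, so a higher HBE1 level lowers the share of the other genes whatever their own level. HBE1 took 81.8% and 77.0% of the summed FPKM with overexpression and 62.2% and 66.1% in wild type. HBG2 took 12.6% and 14.3% with overexpression and 8.73% and 8.23% in wild type. HBD took 5.36% and 8.30% with overexpression and 28.7% and 25.3% in wild type, so that the ratio of HBE1 to HBD was 15.3 and 9.27 against 2.17 and 2.62. The shares of HBE1, HBG2 and HBD did not overlap between the groups, while the TMM-scaled level of HBD did, and HBB took at most 0.452% and HBG1 at most 0.199% in any library.

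**Figure D3:**
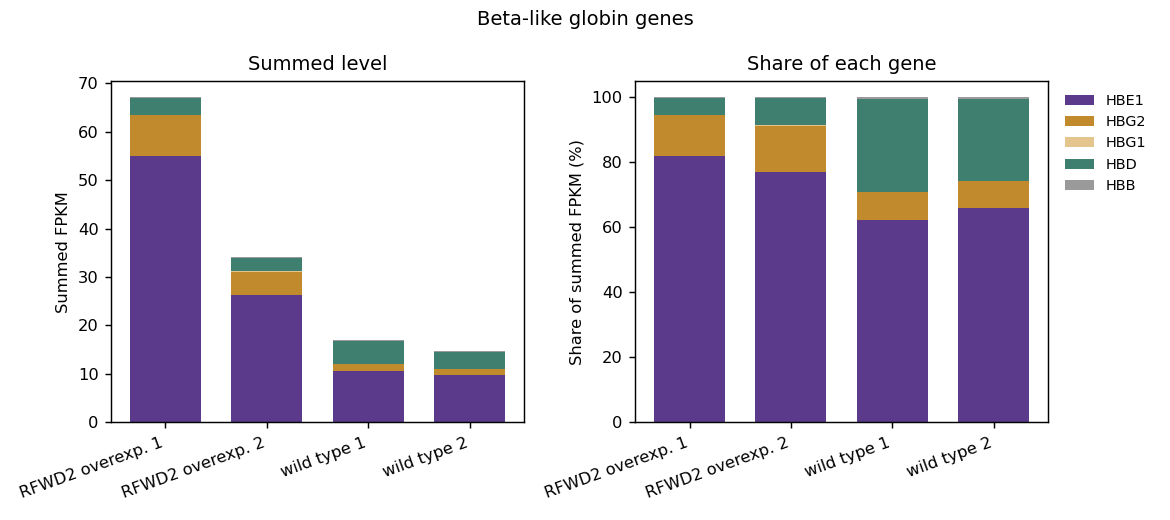
Stacked FPKM of HBE1, HBG2, HBG1, HBD and HBB in each library, as summed level (left) and as percent of the sum (right), with the 2 RFWD2 overexpression libraries left of the 2 wild type libraries. The sum reaches 67.1 and 34.1 FPKM under overexpression, against 16.9 and 14.7 FPKM for wild type, and the HBD share is 5.36% and 8.30% against 28.7% and 25.3%.

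The rows that share the far upstream extent with HBE1 and HBG2 had higher values with overexpression. Their models overlap those of HBE1 and HBG2 on the same strand, so reads may be common to them and they are not separate cases. OR51B5 had 117 and 175 counts under overexpression, against 60 and 38 for wild type, which gave a log2 fold change of 1.56 ± 0.61 (SE), with 1.12 and 2.06 between libraries numbered 1 and 2. Here overexpression library 2 was the highest, unlike in HBE1. AC104389.4 (ENSG00000239920), a readthrough model of protein-coding type in GENCODE, from 5254392 to 5678434, had 604 and 259 counts against 192 and 81, a log2 fold change of 1.77 ± 0.81 (SE). OR51B4, a single-exon olfactory receptor gene within the span, had 26 and 86 counts against 13 and 41, and its groups overlapped. Nearer to HBB, the log2 fold changes were -0.45 for HBD, 0.65 for HBB and -0.85 ± 1.87 for HBBP1. Of the 18 minus-strand rows from HBB to the far end of HBE1, 8 were tested and 5 had a count of 0 in all libraries, among them BGLT3, a noncoding gene between the fetal and adult genes. Summed over HBE1 and all 11 rows overlapping it, the counts were 5239 and 2989 with overexpression and 1228 and 1048 in wild type, and the log2 fold change was 1.98. For HBG2 with its 12 overlapping rows it was also 1.98. The 2 sums hold nearly the same rows. HBE1 itself made up 69.8% to 75.95% of the first sum in each library, so that sum largely restates its values. Whether the difference between groups came from reads of the near or the far start was not tested.

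**Figure D4:**
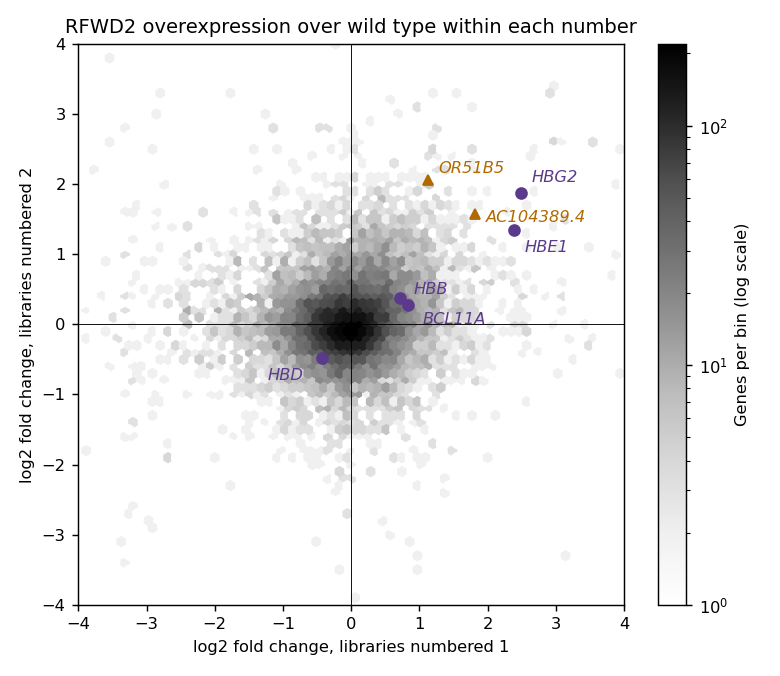
Log2 fold change of RFWD2 overexpression over wild type between the libraries numbered 1 (x axis) and between those numbered 2 (y axis) for 18873 tested genes, as grey bins shaded by the number of genes on a log scale. HBE1 (2.38 and 1.34) and HBG2 (2.49 and 1.88) lie at the upper right with OR51B5 and AC104389.4 (orange), HBD lies at -0.43 and -0.48, and 301 genes fall outside the axes.

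BCL11A (ENSG00000119866, minus strand of chromosome 2, 60450520 to 60555154) had 415 and 477 counts under overexpression, against 263 and 375 counts for wild type. In FPKM it stood at 0.22 and 0.22 against 0.12 and 0.17. The groups did not overlap. The log2 fold change was 0.56 ± 0.44 (SE), with 0.83 between libraries numbered 1 and 0.27 between those numbered 2. Its FPKM is low for such counts because the exons of all its transcripts together cover 25422 bases, while the longest transcript has 7604, against 961 and 918 bases for HBE1. No row with counts overlapped it on either strand. Of all genes tested, 14.6% had a larger log2 fold change than BCL11A, and 10.7% had both overexpression libraries above both wild type libraries. BCL11A, the repressor of the fetal genes in red cells, and HBG2 both had higher values with overexpression in these libraries. Since the members were proposed from this contrast, nothing is read from that shared direction.

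Among 36 factors of globin switching and partners of BCL11A, 32 were tested, 0 were called, and the median log2 fold change was -0.08, against 0.01 over all genes tested. Both overexpression libraries lay above both wild type libraries in 3 of them and below in 4, beside 10.7% and 10.6% of all genes tested. The repressor gene BCL6, with the smallest p of the list, had 1.12 and 1.08 FPKM under overexpression, against 0.58 and 0.43 FPKM for wild type (1.07 ± 0.49 in log2; adjusted p = 1.0 by edgeR). BCL11B, the paralogue of BCL11A, reached at most 0.141 FPKM in any library. GATAD2A, a subunit of the NuRD corepressor complex that BCL11A recruits, was at 9.10 and 9.26 FPKM against 10.3 and 14.4 FPKM (-0.45 ± 0.34). GATA2, a blood progenitor factor, was at 0.57 and 0.52 FPKM against 0.33 and 0.37 FPKM (0.61 ± 0.51). ZBTB7A, which silences the fetal genes independently of BCL11A, differed little, at 3.61 and 3.9975 FPKM against 3.73 and 3.50 FPKM. Both GATA1 and TAL1, activators of the erythroid programme, had a count of 0 in all libraries, as did LIN28B, a fetal-stage RNA-binding protein gene.

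Markers of erythroid cells did not accompany the globin signal. Of 15 such markers, 11 had a count of 0 in all libraries, among them GYPB, which encodes a glycophorin, SLC4A1, the anion exchanger of the red cell membrane, and AHSP, the chaperone of alpha chains. Their summed level was 3.33 and 2.80 FPKM under overexpression, against 6.42 and 2.21 FPKM for wild type, most of it from EPOR, the erythropoietin receptor gene, at 2.95 and 2.61 FPKM against 6.16 and 1.88 FPKM. KLF1 had 0.38 and 0.11 FPKM, against 0.23 and 0.25 FPKM in wild type cells, and ALAS2, the erythroid enzyme of haem synthesis, had 6 counts in wild type library 1 and 0 elsewhere. Megakaryocyte markers summed to 0.48 and 0.43 FPKM under overexpression, against 0.66 and 0.32 FPKM for wild type. Myeloid markers summed to 1.21 and 1.28 FPKM against 0.70 and 0.35 FPKM. Most of that sum under overexpression was CSF1R, a growth factor receptor gene, at 1.1998 and 1.2258 against 0.411 and 0.125 FPKM, while MPO, the myeloperoxidase gene, had 0 counts in each overexpression library, against 71 and 68 counts in the wild type libraries. B cell markers summed to 4.98 and 7.95 against 5.52 and 6.72 FPKM, and T cell markers to 0.22 and 0.27 against 0.15 and 0.24 FPKM. In bulk RNA, fewer cells of a type and less RNA per cell cannot be told apart.

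The alpha-like partners of these chains were nearly silent. HBA1 had 83 and 50 counts with overexpression and 43 in each wild type library, and HBA2 had 15 and 35 against 27 and 24. These 2 adult genes encode the same protein and their reads may be shared. Embryonic HBZ had 3 counts in wild type library 2 and 0 elsewhere, and HBM and HBQ1 were at 0 throughout. The alpha-like sum was 1.52 and 1.18 FPKM under overexpression, against 0.96 and 0.95 FPKM for wild type, so beta-like over alpha-like FPKM was 44.1 and 28.97 with overexpression and 17.7 and 15.5 in wild type. Of 9 haem synthesis genes, 8 were tested and 0 called, with a median log2 fold change of 0.04. ALAD, an early enzyme of the pathway, had 13.6 and 16.01 FPKM, against 11.93 and 11.96 FPKM in wild type cells, and ALAS1, the housekeeping enzyme of the rate-limiting step, was at 23.8 and 24.95 against 22.4 and 23.9 FPKM.

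The contrast of replicate number 2 with number 1, within genotype, was not used to choose the members. No label links libraries of the same number across genotypes, so this contrast rests on an assumed pairing of 4 libraries. Here edgeR called 1359 of 18873 genes (7.2%), and 0 of the 5 members tested. The number called depended on the fit, at 4123 of 28086 genes with DESeq2 and 0 without a filter on low counts. HBE1 was at -0.89 ± 0.31 on the log2 scale (SE; adjusted p = 0.112 by edgeR), from -1.41 with overexpression and -0.36 in wild type. HBG2 was at -0.85 ± 0.33 (adjusted p = 0.138), from -1.14 with overexpression and -0.53 in wild type. HBD was at -0.66 ± 0.28 (adjusted p = 0.169), with close values of -0.68 with overexpression and -0.63 in wild type. BCL11A was at -0.03 ± 0.30 and HBB at -0.44 ± 1.32. The 3 most abundant globin genes were thus lower in number 2 within each genotype, without passing the test. The share of all genes with this order was not counted, and the models of HBE1 and HBG2 overlap, so nothing is read from it.

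The gene most like HBE1 and HBG2 in pattern over the 4 libraries was EHD1, a regulator of endosome recycling. Likeness was the Euclidean distance between log2(FPKM + 1) values centred on each gene's mean, taken over the 5801 genes that average 5 FPKM or more and overlap no member. EHD1 lay at a distance of 0.41 from HBE1 and 0.20 from HBG2, where the median gene lay at 2.03 and 1.83. Adding 1 compresses low genes: the HBG2 log2 fold change was 1.67 on this scale, against 2.30 with edgeR. For HBE1 it was 1.81 against 2.02, so the distances from HBE1 and from HBG2 are not compared with each other. Its levels were 45.95 and 28.6 FPKM under overexpression, against 12.3 and 12.1 FPKM for wild type. Next came AL662899 (0.80) and AL162151 (0.92) for HBE1, and AL162151 (0.79) and CLTB (0.81), which encodes a clathrin light chain, for HBG2. For HBD the near genes included INO80E (0.057) and LINC02315 (0.073), with a median gene at 0.72. With 4 libraries these distances only rank the genes. HBE1 and HBG2 were proposed for their difference between the groups, so the genes nearest to them are largely those with a like difference. The median distances mostly reflect genes that differ little, and nothing more is read from the ranking.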

How the data were processed

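RNA of 4 ARP1 libraries was measured by poly(A)-selected, paired-end sequencing, per the labels' protocols. Per the file headers, the deposited table pairs a whole-number count with an FPKM value for every sample. HISAT2 2.0, StringTie 1.3.0, Bowtie 0.12.2 and mm8 appear in the submitters' processing notes without roles, yet 99.54% of the table's gene identifiers are human ones of GENCODE 29 (GRCh38). The sources used here do not state the counting tool or its use of strand. The deposited counts were treated as estimated counts because 35.6% of values from 1 to 19 are multiples of 4; what 1 count stands for is thus uncertain, and no counting interval is given. The placeholder 0.0001 in the deposited FPKM columns was set to 0.

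Counts were fitted for all genes with edgeR 4.0.16 (R 4.3.3; quasi-likelihood, TMM, filterByExpr, Benjamini-Hochberg over 18873 genes). DESeq2 1.42.0 and limma 3.58.1 on log2(FPKM + 1) served as alternatives. Fold changes within a replicate number subtract log2 CPM values (prior count 2). For overexpression against wild type, counts of 18873 genes were simulated, with known changes in a small random set of the more abundant ones. The rates below therefore do not cover genes of low level. The edgeR test found 1.49% of those changed 2-fold, 34.3% of those changed 4-fold and 93.9% of those changed 16-fold, and made 10 false calls.

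Named genes were the members, rows overlapping them, up to 4 genes of each list by smallest p or by level, and the 3 nearest genes by pattern, of which some are not reported here; OR51B4, ZBTB7A, HBBP1, BGLT3, HBZ and marker genes at 0 were added after their values were seen. The members and lists were chosen with earlier results of these data known. Groups and replicate numbers come from the genotype and title labels, and p-values reflect only the spread among these 4 libraries, possibly technical.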

Additional observations from a re-analysis of the deposited data

How the results depend on the processing

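Over 58 alternative fits of the 5 members tested, 0 reversed a direction. These fits reuse the same libraries, and in 4 of the 5 members the groups did not overlap, so a reversal there was hardly possible. The count of reversals is therefore not read as support. HBE1 ran from 1.14 to 2.56 and HBG2 from 1.61 to 2.76 in log2 fold change, with both extremes among the fits that leave out a library. HBD ran from -0.83 to -0.10, HBB from 0.05 to 0.93 and BCL11A from 0.09 to 0.71, where the lowest values of HBB and BCL11A come from log2(FPKM + 1), which compresses low genes. HBG1 failed the filter, so it has no fold change. The number of genes called for overexpression, 0, became 55 with DESeq2 and 8 without a filter, and ranged from 73 to 183 without each library in turn, where the lone library is assumed to vary like the others. For replicate number it was 1359, against 4123 with DESeq2, 2457 with DESeq2 size factors and 0 without a filter, alternatives chosen after seeing the data. The summed beta-like difference of 34.8 FPKM became 4.35 FPKM without HBE1 and 5.37 FPKM for HBG1 and HBG2 alone, and ranged from 18.3 FPKM without overexpression library 1 to 51.3 FPKM without overexpression library 2. The cause of these shifts was not tested beyond their construction. With the replicate block edgeR called 0 genes, and HBE1 was at 1.86 and HBG2 at 2.21. Deviations from the group means correlated at 0.587 between libraries of the same number, but with 2 numbers and no label of a shared batch this does not establish pairs.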
